A study of Drosophila melanogaster with 3 samples.

Results

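The regions described here are peaks of PHDP-GFP binding whose summit lay in intergenic DNA, outside every annotated gene, at more than 500 and at most 5000 bp from the nearest transcription start site. They numbered 699 in the list filtered by irreproducible discovery rate (IDR), which held 6393 other peaks, or 9.86% of that list (95% exact binomial interval 9.17% to 10.6%, covering counting error over peaks only). Within that list they were chosen by position alone. Entry to the list itself rested on signal and on recurrence in the replicates. The words in their sequence entered neither step. The same rule applied to the strongest 5000 peaks of each replicate gave 506, 459 and 479 peaks in replicates 1, 2 and 3, a share of 9.63% ± 0.472 (SD, n = 3).

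Chromatin immunoprecipitation followed by sequencing had been done on whole Drosophila melanogaster embryos, collected between 10 and 24 hours, of a transgenic line with an insertion that expresses PHDP fused at its C terminus to green fluorescent protein. An antibody against that tag was used in all 3 biological replicates, which form 1 group, and no embryos without the tag were analysed here. PHDP binding therefore cannot be told apart from peaks an anti-GFP antibody gives in untagged embryos, and binding in few cells cannot be told apart from weak binding in many. The files do not give the depth of sequencing, and each replicate list holds 30000 peaks, so peak number says nothing about how much DNA was bound.

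PHDP is a homeodomain transcription factor of the paired-like class, a group of proteins that recognise short AT-rich words around TAAT and can bind palindromic pairs of them as dimers. Intergenic DNA a few kilobases from a start site holds many of the enhancers of the compact fly genome, which act on a promoter from upstream or from beyond the 3′ end of a gene. Because an enhancer can skip the nearest gene, the gene named for each peak below is the one with the nearest start and not a shown target.

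The sequences below are printed to show what lay under these summits. Each runs from 50 bases before the summit to 50 bases after it on the + strand of dm6, taken from the RefSeq sequence of the same assembly (release 6) and each is named by the gene with the nearest start. Capitals mark TAATTA, and TAAT followed by ATTA at a distance of 2 or 3 bases. The first 4 belong to the summits that rank 1, 2, 3 and 5 in signal among the 699, and none of them holds a capital. The last 3 are the strongest shown summits with TAAT and ATTA 3 bases apart within 50 bp.
jp, 2L:9567455-9567555: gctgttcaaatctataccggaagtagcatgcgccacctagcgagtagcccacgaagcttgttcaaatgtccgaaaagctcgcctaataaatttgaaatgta
DNAlig3, 3R:12403084-12403184: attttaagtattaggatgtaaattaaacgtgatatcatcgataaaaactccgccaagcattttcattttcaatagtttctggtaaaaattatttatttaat
lncRNA:CR45643, 3R:16222443-16222543: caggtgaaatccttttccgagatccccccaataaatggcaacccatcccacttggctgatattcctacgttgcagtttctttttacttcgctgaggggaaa
foxo, 3R:14053558-14053658: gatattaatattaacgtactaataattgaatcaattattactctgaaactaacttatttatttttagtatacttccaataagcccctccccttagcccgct
chinmo, 2L:1649411-1649511: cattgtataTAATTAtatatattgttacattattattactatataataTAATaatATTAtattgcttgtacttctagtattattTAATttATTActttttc
Gr89a, 3R:16497588-16497688: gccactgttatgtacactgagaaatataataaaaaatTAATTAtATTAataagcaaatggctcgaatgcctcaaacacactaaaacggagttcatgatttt
CG12402, 3R:14108783-14108883: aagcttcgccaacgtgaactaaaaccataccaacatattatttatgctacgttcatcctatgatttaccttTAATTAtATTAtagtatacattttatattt
The GC content of these sequences ran from 12.9% at chinmo to 46.5% at lncRNA:CR45643. At Gr89a and CG12402 the spaced pair overlapped a TAATTA, whose first bases are the TAAT of the pair.

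The strongest intergenic summits lay beside genes of unlike functions. Of the 10 strongest, 7 had a protein-coding gene as the nearest, and 6 of the 10 were upstream of their nearest start. The authors' signal value is given as deposited, and its scale differs between lists, so the IDR signal and the replicate signals are not to be compared with each other. The first summit lay 755 bp upstream of jp, which encodes junctophilin, a protein that links the cell membrane to the endoplasmic reticulum (peak 2L:9567289-9567783, gene FBgn0032129). Its signal was 862, 1060 and 761 in replicates 1, 2 and 3 (894 ± 152, SD, n = 3), and it ranked 61 in the IDR list. The second, with signals of 730, 1200 and 656 (862 ± 295, SD, n = 3) and rank 70, had the DNA ligase gene DNAlig3 as its nearest start, 1295 bp away (peak 3R:12402938-12403315). That summit lay in the 437 bp between the 3′ ends of Sol1 and Cyp9f2 and not beside DNAlig3 itself. Replicate 2 gave the highest value for both summits and replicate 3 the lowest.

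Around tara, a gene for a regulator of transcription and the cell cycle, 2 of the 10 strongest summits flanked the non-coding RNA gene lncRNA:CR45643. The summit 902 bp upstream of that RNA (peak 3R:16222279-16222702) had signals of 774, 1075 and 711 (853 ± 195, SD, n = 3). The summit 907 bp downstream of its start, 1144 bp from a start of tara, had 669, 795 and 711 (725 ± 64.3, SD, n = 3). Again replicate 2 was highest at both. The summit at CycB, the mitotic cyclin B gene, was downstream by 3338 bp (peak 2R:22802753-22803178), with 763, 989 and 744 (832 ± 136, SD, n = 3). Its sequence is not shown here, but its window of 100 bp either side held TAAT and ATTA 2 bases apart, the only one of the 10 with a pair at that spacing or at 3 bases. The summit at foxo, the forkhead factor of insulin signalling, was upstream by 3337 bp (peak 3R:14053377-14053782), with 732, 817 and 700 (750 ± 60.8, SD, n = 3), the smallest SD of the 10. A second summit lay 4614 bp upstream of foxo, with an IDR signal of 804.

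The remaining 4 were nearest to CG31668, sp3, CG17896 and lncRNA:CR45695. CG31668 had its summit 3771 bp downstream, with 631, 798 and 634 (688 ± 95.5, SD, n = 3). At sp3 the summit was 579 bp upstream and held TAATTA within 100 bp, with 665, 828 and 502 (665 ± 163, SD, n = 3). CG17896, the strongest on the X chromosome, had a summit 521 bp upstream, with 734, 702 and 477 (638 ± 140, SD, n = 3). The summit 3734 bp downstream of lncRNA:CR45695 also held TAATTA, with 717, 674 and 496 (629 ± 117, SD, n = 3), and its nearest protein-coding start was that of chinmo, 7829 bp away. Replicate 1 was the highest at these last 2, and replicate 2 at the other 8. Every one of the 10 ranked 184 or better in each replicate list, and its replicate summits lay within 20 bp of the IDR summit. TAATTA was present in 2 of the 10.

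**Figure D1:**
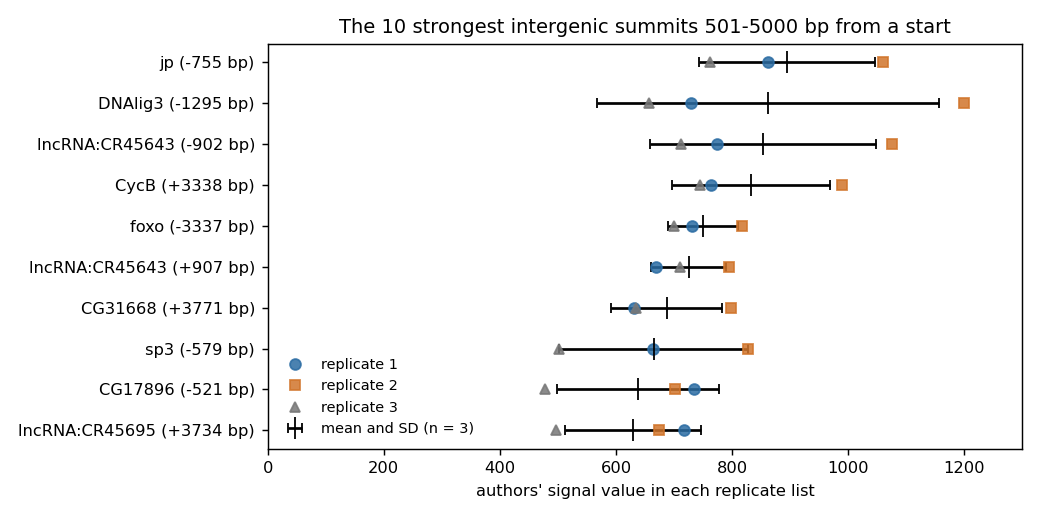
The horizontal axis is the authors' signal value in each replicate list for the 10 strongest summits, with 1 row per summit named by its nearest gene and its distance from that start. Symbols are replicates, and the black mark and bar are the mean and SD (n = 3); DNAlig3 has the widest bar (862 ± 295) and foxo the narrowest (750 ± 60.8).

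Arms 3L and 4 had weaker leaders. The strongest on 3L was 639 bp upstream of RasGAP1, a gene for an inhibitor of Ras signalling, with 374, 397 and 337 (369 ± 30.3, SD, n = 3). On chromosome 4 it was 3903 bp upstream of zfh2, a zinc finger and homeodomain gene, with 313, 315 and 340 (323 ± 14.9, SD, n = 3), and there replicate 3 was the highest. The other strongest of an arm were jp on 2L, CycB on 2R, DNAlig3 on 3R and CG17896 on X.

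By arm, 197 of the 699 summits were on 3L, 160 on 2L, 149 on 3R, 103 on 2R, 83 on X and 7 on chromosome 4. Arm 3L held 28.2% of them against 21.4% of the bases that meet the same position rule, and X held 11.9% against 14.6%. Among each replicate's strongest 5000 peaks, the 3L share of these summits exceeded that of all other peaks by 6.89 ± 1.36 percentage points, and the X share fell short, with a difference of -6.98 ± 0.698 (SD, n = 3 for both). Both differences had 1 sign in all 3 replicates, but an exact two-sided sign-flip permutation test over 3 replicates cannot give less than p = 0.25, which was its value for each. The same test and limit hold for every p below.

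Intergenic summits were densest near the start, and their density fell up to 3000 bp and not beyond. The rule is met by 12.2% of the bases of the 6 arms, and these held 42.7 summits per Mb, against 53.0 IDR peaks per Mb over all bases. Per Mb of such DNA, there were 65.8 summits at over 500 and up to 1000 bp, 46.5 up to 2000 bp, 31.8 up to 3000 bp, 34.1 up to 4000 bp and 35.4 up to 5000 bp. The quartiles of the distance were 943, 1741 and 3086.5 bp. The nearest interval held 26.6% of the summits and 17.3% of the bases, and in the replicates its excess was 9.12 ± 0.256 percentage points (SD, n = 3, exact permutation p = 0.25). The limits of the class cut through a continuous range. CG5770 (504 bp, signal 215) and CG43401 (505 bp, signal 308) lay just inside 500 bp, and GstD1 (491 bp, signal 196) and lncRNA:CR43263 (497 bp, signal 391) just outside. At the far limit, CG11369 (4963 bp, signal 195) and lncRNA:CR44443 (4971 bp, signal 182) lay just inside, and rpr (5017 bp, signal 236) and tei (5034 bp, signal 269) just outside.

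Most summits were upstream of the gene with the nearest start. These were 498, or 71.2%, and the other 201 lay past the 3′ end of that gene. Of the bases that meet the rule 64.1% are upstream, and in the replicates the upstream share exceeded this by 7.0, 6.88 and 5.37 percentage points (6.42 ± 0.906, SD, n = 3, exact permutation p = 0.25). Upstream summits had a median distance of 1547 bp and downstream summits one of 2108 bp. Their median IDR signals, 288.8 and 290.6, put upstream summits slightly lower. In the replicates upstream summits were instead slightly higher, by 0.03 ± 0.01 on the log2 scale (SD, n = 3, exact permutation p = 0.25), so the direction depended on the list.

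**Figure D2:**
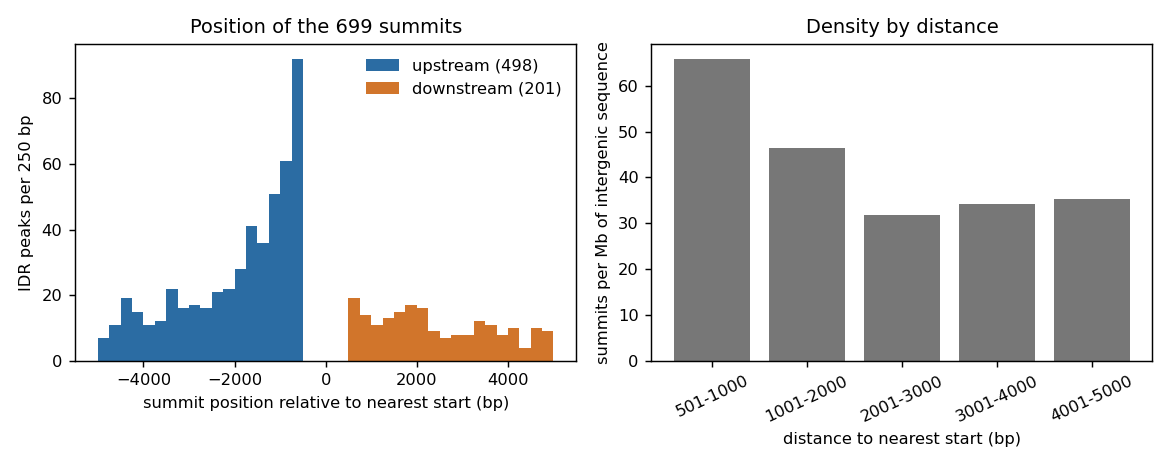
The left panel counts the 699 summits per 250 bp of position relative to the nearest start, upstream negative (498, blue) and downstream positive (201, orange); the right panel gives summits per Mb of intergenic sequence in each distance interval. The highest columns are the upstream ones closest to the 500 bp limit, and the density goes from 65.8 to 35.4 per Mb between the nearest and the farthest interval.

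The gaps between genes that held these summits had a median length of 6795 bp. Gaps between divergent genes, with a start at both ends, held 221 summits (31.6%, against 26.7% of the bases), and convergent gaps, with no start at either end, held 116 (16.6% against 20.5%). The remaining summits were 361 in tandem gaps (51.6% against 52.5%) and 1 at an arm end. In the replicates the divergent share exceeded its share of bases by 5.11, 6.41 and 2.73 percentage points (4.75 ± 1.87, SD, n = 3, exact permutation p = 0.25). The nearest start belonged to a gene that does not border the gap for 32 summits (4.58%), of which the DNAlig3 summit is one. All 699 also lay outside every one of the 17687 genes of the RefSeq annotation.

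Many of the nearest genes were not protein-coding. Of the 18164 annotated genes, 13945 are protein-coding, and the share of bases nearest to each kind of gene was not worked out. A protein-coding start was nearest for 468 summits (67.0%), a long non-coding RNA for 201, a tRNA gene for 18, a microRNA gene for 4, a pseudogene for 3, an antisense RNA for 2, another non-coding RNA for 2 and a snoRNA for 1. A protein-coding start within 5000 bp existed for 556 of the 699. In all, 563 genes were the nearest, of which 396 were protein-coding, or 2.84% of the 13945 protein-coding genes. Of the 563, 460 were nearest to 1 summit, 78 to 2 and 25 to 3 or more. The median log2 signal of summits nearest to protein-coding genes differed from that of the rest by -0.00 ± 0.02 (SD, n = 3, exact permutation p = 1).

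The genes with most summits were mainly poorly characterised. CG13898 was nearest to 5, at positions from 1792 bp upstream to 3776 bp downstream of its starts, with IDR signals from 178 to 765. Among the strongest 5000 peaks it had 4, 2 and 2 such summits in replicates 1, 2 and 3. The next genes had 4 each, namely lncRNA:CR45251, CG7484, lncRNA:CR44761, lncRNA:CR44606, lncRNA:CR44720 and Cipc, a homologue of a gene for an inhibitor of the circadian factor Clock. CG7484 had 3, 4 and 5 in the replicates and Cipc 3, 4 and 3, whereas lncRNA:CR44720 had 2, 0 and 2. The 3 summits at lncRNA:CR45643 had the highest summed signal of any gene with 3 or more (5547), and 3 summits were also found there among the strongest 5000 of every replicate.

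Some of the summits lay close to one another. The median distance to the next IDR summit was 2595 bp and that of other IDR peaks 2587 bp, so their spacing was much the same. Joining summits at most 5000 bp apart gave 533 runs, and 274 of the 699 (39.2%) lay in a run of 2 or more. Another such summit was within 1000 bp for 120 of them (17.2%), and any IDR summit for 175 (25%). These 120 had a median IDR signal of 314 against 287 for the other 579. In the replicates their log2 signal was higher by 0.28, 0.26 and 0.26 (0.27 ± 0.01, SD, n = 3, exact permutation p = 0.25). Only 4 of the 699 shared a called peak interval with another. The run with most summits, picked out after its values were seen, held 7 in 2L:12003000-12012416, between Hacd1, a fatty acid elongation gene, Rh5, a rhodopsin gene of the eye, and lncRNA:CR44588. Its interval held 6, 5 and 5 summits of this class among the strongest 5000 of replicates 1, 2 and 3.

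Genes of transcription factors and of signalling occurred among the nearest genes in small numbers. Counts below are of genes with such a summit, beside the 2.84% of all protein-coding genes, and of genes with an IDR summit within 500 bp of a start, beside 25.1% of all. The lists were chosen with earlier results of these data known and were not tested for enrichment. The length of intergenic DNA beside each gene was not taken into account. Among 26 paired-like and Pax homeobox genes, 2 had an intergenic summit and 2 a promoter summit. One of the intergenic ones was 535 bp upstream of PHDP itself, with signals of 350, 408 and 321 in the replicates and rank 458. The line carries an insertion for PHDP, and the labels do not say how much flanking DNA it holds. The other intergenic summit was 992 bp upstream of CG11294, with 85.8, 32.1 and 64.5, a much weaker peak that replicate 2 placed lowest. None of the 8 Hox genes, which set segment identity, had either kind of summit. Of 49 other homeobox genes 5 had an intergenic summit and 4 a promoter one. Besides zfh2 these were led by Optix, an eye development gene, and zfh1, a mesoderm and nervous system regulator. The stronger Optix summit, 4213 bp downstream, was matched in replicate 1 alone (100.7). A weaker one at 4934 bp downstream was matched in all 3 (49.4, 80.6 and 49.7). The zfh1 summit was 4512 bp upstream with 105, 76.1 and 83.1.

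Zinc finger and GATA regulators had the highest share, with 6 of 32 genes and 11 with a promoter summit. At chinmo, which sets temporal identity in neurons, the summit 1797 bp upstream had signals of 551, 519 and 474 (514 ± 38.8, SD, n = 3), highest in replicate 1. The summit 1415 bp upstream of lola, a regulator of axon growth, had 241, 211 and 155. At srp, the GATA factor of blood cells and fat body, 2 summits lay 2450 and 1516 bp upstream, and the stronger had 140, 168 and 167. The nuclear receptor gene Hr38 also had 2, at 671 and 1649 bp upstream, and was the only one of 21 genes of its list, 8 of which had a promoter summit. Of 36 bHLH genes, 10 had a promoter summit and tx alone an intergenic one, 4013 bp upstream with 129, 78.3 and 66.9.

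Signalling genes gave 3 of 44, with 16 at promoters. The summit 1750 bp upstream of fz, which encodes a Wnt and planar polarity receptor, was the strongest of these, with 449, 285 and 356, highest in replicate 1. Wnt4, a Wnt ligand gene, followed with 106, 163 and 81.6 at 4455 bp upstream, and ths, an FGF ligand gene, with 92.9, 77.2 and 79.9 at 697 bp upstream. Of 25 sarcomere genes 3 had an intergenic summit and 4 a promoter one. They were the muscle actin genes Act87E (155, 160 and 108) and Act57B (177, 129 and 117) and the troponin C gene TpnC47D (126, 48.4 and 119). At TpnC47D, replicate 2 gave less than either of the others.

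Cytoplasmic ribosomal protein genes had summits mostly at promoters. Of 85, 75 had an IDR summit at the promoter and 2 (2.35%) an intergenic one, a share near that of all genes. At RpS15Aa that summit was weak, with 45.8, 84.3 and 44.3, highest in replicate 2. Of 179 chemoreceptor genes, none had a promoter summit and 7 (3.91%) were nearest to an intergenic one, a share near the 2.84% of all genes. Gr89a, a gustatory receptor gene, led them with 250, 380 and 304 (311 ± 65.0, SD, n = 3). Gr93a followed with 3 summits, the strongest at 184, 179 and 189. Together with Gr93b and Gr93d, the Gr93 group had 6 of the 11 chemoreceptor summits, a group picked out after its values were seen. Of 92 cuticle protein genes, 3 had an intergenic summit (Cpr51A, Cpr65Eb and Cpr100A) and 2 a promoter one. Of 19 heat shock and chaperone genes, none had an intergenic summit and 6 a promoter summit.

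**Figure D3:**
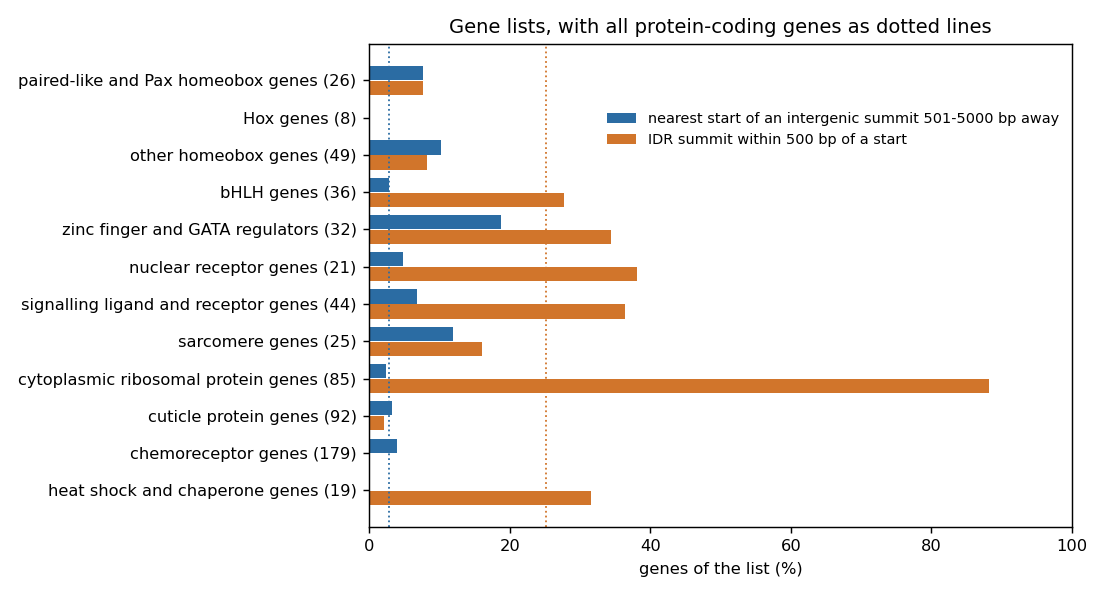
Bars give the percentage of each gene list, with the number of genes in brackets, that was nearest to an intergenic summit (blue) or had an IDR summit within 500 bp of a start (orange); dotted lines are all protein-coding genes, 2.84% and 25.1%. Ribosomal protein genes have the longest orange bar (75 of 85) and the zinc finger and GATA list the longest blue bar (6 of 32).

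Genes with an intergenic summit had a promoter summit somewhat more often than protein-coding genes as a whole. Of the 396 nearest protein-coding genes, 119 (30.1%) had an IDR summit within 500 bp of a start, against 25.1% of all. With the strongest 5000 peaks of each replicate the shares were 23.0% ± 1.08 and 19.4% ± 0.338, and the difference was 3.57 ± 0.741 percentage points (SD, n = 3, exact permutation p = 0.25). The 291 genes whose intergenic summit was over 1000 bp away had a promoter summit in 27.1%, a share between that of the 396 and that of all genes.

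Signals were modest within the series. The 699 ran from 172 to 2674 in the IDR list, with a median of 289 and quartiles of 216 and 431, and the best ranked 61. Of them 77 (11.0%) were among the strongest 1000, against 14.4% of the other 6393 peaks. Their called width had a median of 282 bp against 323 bp. In replicates 1, 2 and 3 their median signal was 103, 110 and 85.6, against 109, 117 and 89.7 for the other IDR peaks. The log2 difference was -0.08 ± 0.01 (SD, n = 3, exact permutation p = 0.25), below 0 in each replicate. It was -0.14 among peaks with at least the median IDR signal and -0.05 with protein-coding genes only.

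By position class, the intergenic summits stood below promoter peaks and above more distant ones. Their median log2 signal differed by -0.15 ± 0.03 from that of the 3146 peaks within 500 bp of a start. From that of the 1887 intronic peaks at over 500 and up to 5000 bp it differed by -0.09 ± 0.02. Against the 266 intergenic peaks beyond 5000 bp it was higher by 0.15 ± 0.03, and against the 908 intronic peaks beyond 5000 bp by 0.06 ± 0.02 (SD, n = 3 and exact permutation p = 0.25 for each). Each of these had 1 sign in all 3 replicates. Within the 699, signal went the other way with distance. The median was 277 in the nearest interval and 307 in the farthest, and summits over 2000 bp away exceeded nearer ones by 0.13, 0.05 and 0.06 on the log2 scale (0.08 ± 0.05, SD, n = 3, exact permutation p = 0.25).

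**Figure D4:**
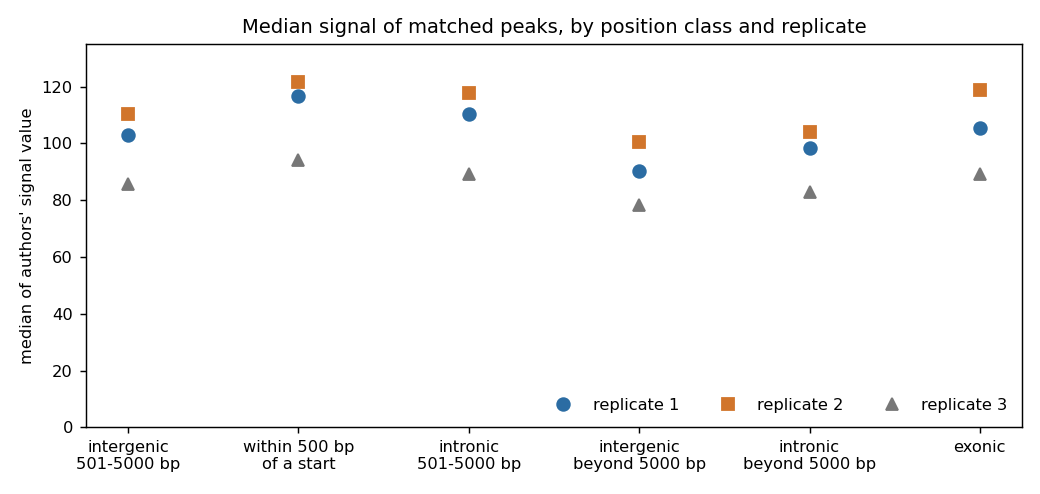
The vertical axis is the median of the authors' signal value of matched peaks in each replicate list, from 0, for 6 position classes; symbols are replicates. Within every replicate the intergenic class at over 500 and up to 5000 bp (103, 110 and 85.6) lies below the class within 500 bp of a start and above the intergenic class beyond 5000 bp.

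The summits recurred in the replicates at a share close to that of other IDR peaks. A replicate summit within 100 bp was found for 640 of 699 (91.6%) in all 3 replicates, against 90.5% of all IDR peaks and 90.4% of the others. A further 55 were matched in 2 replicates, 4 in 1 and none in 0. Matches were sought in the full lists of 30000 peaks, whose lowest −log10 q was 0.358, 0.429 and 0.388 in replicates 1, 2 and 3. Within as many of each replicate's strongest peaks as the IDR list holds, 63.2% matched in all 3 (other IDR peaks 63.1%). Since the replicate lists went into the IDR list, recurrence is partly built in. Per replicate, 97.6%, 96.6% and 96.9% were matched, and the difference from other IDR peaks was 0.536 ± 0.774 percentage points (SD, n = 3, exact permutation p = 0.5), less than its spread. The median offset of the matched summit was 10, 17 and 15 bp. The 4 matched in a single replicate were named after their values were seen. They were a summit 838 bp upstream of RasGAP1, the stronger one at Optix, 1 at CG14275 and 1 at CG1888. The first and CG14275 were found in replicate 3, the others in replicate 1.

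Of the 640 summits matched in all 3, 360 had their highest signal in replicate 2 and 388 their lowest in replicate 3. The median coefficient of variation over the replicates was 21.2%, which includes the difference in scale between lists. Across summits, the Spearman correlation of signal between replicates averaged 0.777 ± 0.0323 (SD, n = 3 pairs of replicates), and other IDR peaks had 0.803 ± 0.0179. Summits are not independent replicates, and each pair shares its control, so this is a description.

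AT-rich sequence and the homeodomain word TAATTA were concentrated at the summits. Within 100 bp of the summit, 145 of 699 (20.7%) held TAATTA on either strand (the word is its own reverse complement), against 12.3% of windows centred 500 bp away. Of all windows of the same length in DNA that meets the position rule, 15.6% held it. In the replicates the difference from the flanks was 8.58 ± 0.365 percentage points (SD, n = 3, exact permutation p = 0.25), and other IDR peaks had 18.6%. Intergenic peaks beyond 5000 bp had 16.5%, and intronic peaks at over 500 and up to 5000 bp had 19.1%. Against all other peaks, the share in these summits was higher by 1.74, 2.67 and 2.43 percentage points (2.28 ± 0.485, SD, n = 3, exact permutation p = 0.25). DNA that meets the rule held the word more often than the arms as a whole. The part of this background in the difference from other peaks was not tested. GC content moved with the word. It was 33.5% at the summits, 41.7% in the flanks and 34.8% at other IDR summits. Summits of intergenic peaks beyond 5000 bp had 33.5%, and those of intronic peaks at over 500 and up to 5000 bp had 33.9%. The part of GC content in the TAATTA counts was not tested. Summits with the word had a median signal of 302 and those without 288, a log2 difference of 0.08 ± 0.07 (SD, n = 3, exact permutation p = 0.25).

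**Figure D5:**
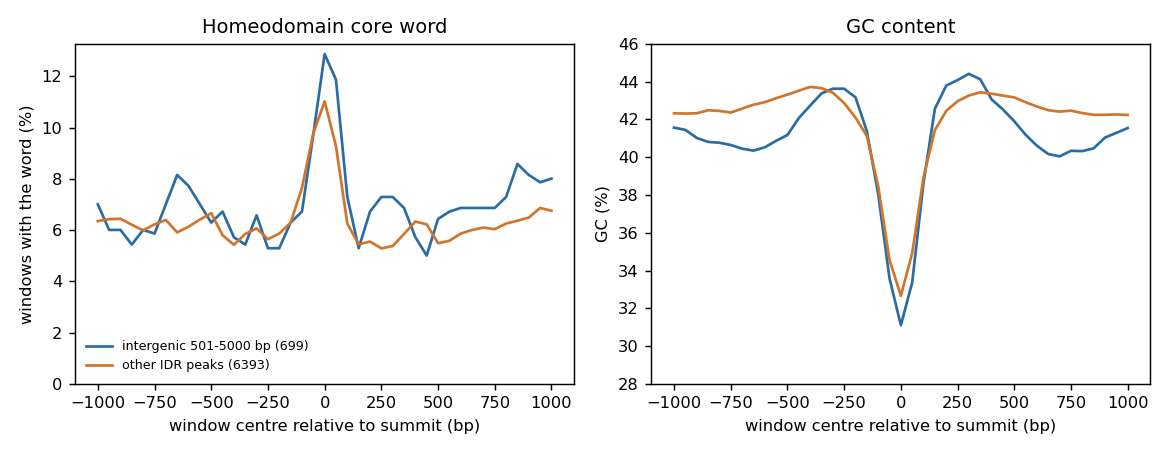
Left, the percentage of windows (50 bp either side of their centre) that hold TAATTA, and right, their GC content (axis from 28%), against the position of the window centre relative to the summit in bp, for the 699 intergenic summits (blue) and the other 6393 IDR peaks (orange). At the summit the intergenic class has 12.9% and 31.1%, and the other peaks 11.0% and 32.7%.

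Spaced pairs, as in the printed chinmo, Gr89a and CG12402 sequences, were found at few summits. TAAT and ATTA lay 2 bases apart in 22 summit windows (3.15%, flanks 1.07%) and 3 bases apart in 23 (3.29%, flanks 1.43%). Windows of the same length that meet the position rule held them in 1.51% and 1.99%. Other spacings were about as frequent, from 2.43% at 7 bases to 3.58% at 6 bases, so no spacing from 0 to 8 bases stood out. At CG12402 the summit 512 bp upstream had signals of 233, 317 and 195 (248 ± 62.7, SD, n = 3).

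Words of core promoters were rarer at these summits than at promoter peaks, as they also were in other peaks away from starts. All words were searched on both strands. The word of the promoter factor DREF, TATCGATA, was in 5 windows (0.715%), against 6.48% of peaks within 500 bp of a start and 0.394% of windows that meet the rule. Intergenic peaks beyond 5000 bp had it in 0.752% and intronic peaks at over 500 and up to 5000 bp in 0.371%. GGTCACAC, a core promoter word called Motif 1, was in 3 (0.429%), against 4.48% of promoter peaks, 0.249% of such windows, and 0% and 0.212% of those intergenic and intronic peaks. GAGAGAG, the word of GAGA factor, was in 1.57%, against 4.65% of the flanks and 2.14% of such windows. Relative to other IDR peaks, which include the promoter peaks, these words were rarer in every replicate, by -2.59 ± 0.141, -1.51 ± 0.285 and -1.81 ± 0.358 percentage points (SD, n = 3, exact permutation p = 0.25 for each).

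Words of other factor families were also compared. The GATA word AGATAA was in 15.2% of summits, 11.3% of flanks and 11.0% of windows that meet the rule, below the 16.9% of other IDR peaks. The forkhead word TGTTTAC was in 5.58%, with 4.58% in flanks, 3.86% in such windows and 7.84% in other peaks. Of the E-boxes, bound by bHLH proteins, CAGCTG was in 5.15% (flanks 8.01%, such windows 7.51%, other IDR peaks 8.34%) and CACGTG in 1.86% (flanks 2.79%, such windows 2.41%). The early embryonic word of Zelda, CAGGTAG, was in 1.29% (flanks 0.930%, such windows 0.876%). The Runt word TGTGGTT was in 1.72% (flanks 2.65%, such windows 2.88%), and the CA repeat CACACACA in 2.86% (flanks 5.51%, such windows 4.56%). Against other IDR peaks in the replicates, CAGCTG differed by -3.67 ± 0.961, TGTTTAC by -2.27 ± 0.864 and AGATAA by -1.93 ± 0.862 percentage points (SD, n = 3, exact permutation p = 0.25 for each). CAGGTAG, in 9 summits, was instead higher, by 1.22 ± 0.591 percentage points (SD, n = 3, exact permutation p = 0.25). Its sign held in every replicate, and other IDR peaks had it in 0.657%. Intergenic peaks beyond 5000 bp held CAGCTG in 2.63%, TGTTTAC in 5.64%, AGATAA in 18.4% and CAGGTAG in 0%. The low shares of CAGCTG and TGTTTAC were therefore not particular to these summits. A match describes the letters in a window and does not show that a factor bound there.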

How the data were processed

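Peak lists of 3 biological replicates and their IDR list, all on dm6, were used as deposited; per the file notes, each replicate list came from 1 alignment and a shared control. Per the labels, sonicated chromatin ranged in size from 200 to 800, with no unit. Aligner and caller were not given in the sources used for these lists. The signal value of each peak was set by the authors. The deposited −log10 q values reach a ceiling (4.24 in every IDR peak) and ranked nothing. The labels' antibody field names PHDP while their description names anti-GFP, and their age field disagrees with the 10 to 24 hours used here. Depth is unknown.

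Genes and starts came from the Ensembl release 115 annotation (BDGP6.54), without 5809 transposable elements, on arms 2L, 2R, 3L, 3R, 4 and X. Summits were 1-based. Replicate peaks matched with a summit within 100 bp. Words were searched within 100 bp of the summit, with flanks centred 500 bp away on both sides. Spreads are SDs over replicates, from the strongest 5000 peaks of each or from matched peaks, with exact two-sided sign-flip permutation tests. Members, words, 12 gene lists and tests were chosen with earlier results of these data known. Named items were the 10 strongest, the 8 genes with most summits, the strongest of each arm, 3 per list, 3 with the spaced pair and 2 on each side of each limit. One item that this rule names is not reported here. Alternatives covered limits, gene sets, peak sets, matching, windows, gene links and left-out replicates. Calculations were tested on simulated data. Python 3.11.15, numpy 2.4.6, scipy 1.17.1, pandas 2.3.3 and matplotlib 3.10.9 were used.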

Additional observations from a re-analysis of the deposited data

How the results depend on the processing

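Of 57 alternative values, 32 kept their sign (differences) or stayed within 1 SD (shares) or 1.5 times (counts), 24 moved further and 1 changed sign. The number of intergenic summits was 1080 with a promoter limit of 200 bp, 398 with an upper limit of 2000 bp and 332 among the stronger peaks, those with at least the median IDR signal. With protein-coding genes only, both the other genes and their starts left the rule. The class then held 660 summits, and 556 of the 699 stayed in it. Of the 660, 76.5% were upstream and 92.1% matched in all 3 replicates, and 31.6% of their nearest genes had a promoter summit. Counting transposable elements as genes, an alternative chosen after seeing the data, gave 70.1% upstream and 91.0% matched. The stronger peaks gave 96.7% matched, 203 genes and 17.7% with a promoter summit (all genes 14.6%). Matching within 50 bp gave 64.8% (other IDR peaks 64.9%), within 250 bp 98.0% (97.8%) and within as many of each replicate's strongest peaks as the IDR list holds 63.2% (63.1%). The log2 signal difference from other IDR peaks, -0.08, was -0.14 among the stronger peaks and -0.05 with protein-coding genes only. Against intergenic peaks beyond 5000 bp, the log2 signal difference was 0.15, a change of sign that comes from the other comparator. Every gene with a start within 5000 bp gave 753 genes. A promoter summit within 1000 bp was found for 51.3% of nearest genes (all genes 28.9%), where summits at up to 1000 bp count by construction. Leaving out each replicate, which keeps fewer peaks, gave 69.8% to 72.3% upstream and 21.8% to 24.1% with a promoter summit (all genes 18.3% to 19.3%). For matching, the summits stayed the same and a match was asked only in the replicates left. That gave 93.7% to 94.4%, a share that cannot be below the one for all 3 replicates. The TAATTA difference from the flanks stayed above 0 in every alternative run, from 5.01 to 10.2 percentage points. No paired analysis was possible because the series has 1 group. Unknown depth and 3 replicates limit every comparison.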

Other observations

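Some intergenic summits had a small RNA gene as the nearest. The 18 summits nearest to a tRNA gene had 13 of the 290 annotated tRNA genes as nearest. Of all 18164 annotated genes, 563 were nearest to an intergenic summit. Of the 18 summits, 13 were upstream, beside 71.2% of all summits of this class. These shares were not tested against each other. The strongest of the 18, 2277 bp upstream of tRNA:Phe-GAA-1-7, had signals of 357, 416 and 292 in replicates 1, 2 and 3. With the neighbouring tRNA:Phe-GAA-1-6 it formed a run of 5 summits. The interval of that run held 5, 3 and 3 summits of this class among the strongest 5000 of the replicates. Of the 4 summits nearest to a microRNA gene, 2 lay upstream of mir-219, and the stronger of these had 80.3, 29.6 and 67.4, lowest in replicate 2. The summit 3756 bp upstream of mir-9385, on chromosome 4, had 100, 165 and 84.3.

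Chromosome 4, a small and largely heterochromatic chromosome, had 7 of its 31 IDR peaks in this class (22.6%, against 12.6% on 3L and 6.64% on X). It held 1.00% of the 699 summits and 0.732% of the bases that meet the rule. Besides zfh2, its summits were nearest to fuss (at 1839 and 4475 bp upstream), Asator, Sox102F, mir-9385 and lncRNA:CR43437, whose signals were 278, 455 and 224. Across the arms, 6 of the 699 summits (0.858%) lay inside an annotated transposable element, against 0.268% of all IDR peaks, and their nearest genes were ed, del, C1GalTA, CR43276, IP3K1 and fuss. These elements did not count as genes in the rule, and the share of bases that lie inside them was not worked out.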
